A study of Arabidopsis thaliana with 16 samples.

Results

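The 80 Arabidopsis thaliana genes described here had array signals above the median and differed little, on average, between blue and white light. They were chosen from the measured values. A feature of the array entered if it was above 0 in all 16 array columns, which held for 2498 of 3439 features, and if the platform annotation paired it with exactly 1 gene, which left 491. After log2 transformation, quantile normalization (which gives every column the same distribution of values) and averaging of neighbouring replicates, the genes were those with a mean signal over both lights above the median of the 2498 features (-1.32 on the log2 scale) and an absolute blue minus white difference of at most 0.4. PSBY, CHLM, AT1G74470, AT3G54210 and AT1G29070 were left out by name, 4 of which met the other conditions. AT1G29070 did not, being listed at 0 in 2 of its 16 columns. Since signal and light difference chose the genes, both are given as descriptions.

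All plants were wild type of the ecotype Landsberg, and total RNA was measured. One group spent its final 48 hours under blue light at 20 µE, and the other received white light of 20 µE over 48 hours, with 8 array columns per light. The labels name no organ, age or earlier light, no marker of root, seed, flower, leaf or senescence on the lists used had a single-gene feature, and nothing states that the columns came from separate plants. Every column was closest, by rank correlation, to its neighbour in replicate number (1 and 2, 3 and 4, 5 and 6, 7 and 8), so neighbours were averaged to samples 1 to 4 of each light, and n = 4 per light throughout.

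Plants sense blue light through cryptochromes and phototropins, which act among other things on the transcription of nuclear genes for chloroplast proteins, while red and far-red light act through phytochromes. White light holds all of these wavelengths. Genes whose transcripts keep a constant share of the RNA between conditions are used as references for normalization in such comparisons, and a reference is useful only if its spread between samples is also known.

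Total signal per column ran from 3067 to 3735 in blue light and from 1044 to 3320 in white light, with the lowest totals in replicates 7 and 8 (sample 4) of each light. The median signal of the 2498 features as deposited ran from -0.92 to -0.35 over the blue light samples and from -3.03 to -1.38 over the white light samples on the log2 scale, so every difference below is relative to the other features. Signal depends on the probe as well as on the transcript, and no gene's transcript amount is set against another's. The number of arrays limits the precision, and in whole tissue fewer cells of a type and less RNA per cell cannot be told apart.

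The gene table of the assembly TAIR10.1 gave a symbol or product name for 15 of the 80 genes. They encode a chloroplast NADH dehydrogenase subunit, a sucrose-phosphate synthase, a thiamin synthesis enzyme, a plastid RNA factor, 4 proteins of stress and detoxification, 5 of nuclear transcription and chromatin, an endoglucanase and CCL. The other 65 had a locus name only and no role is given for them. The level of the 80 genes ran from -1.31 to 5.04 with a median of -0.70, and 22 of them lay above 0. The mean difference was above 0 for 36 genes and below 0 for 44, with a median of -0.042 against -0.020 over the 2498 features.

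**Figure D1:**
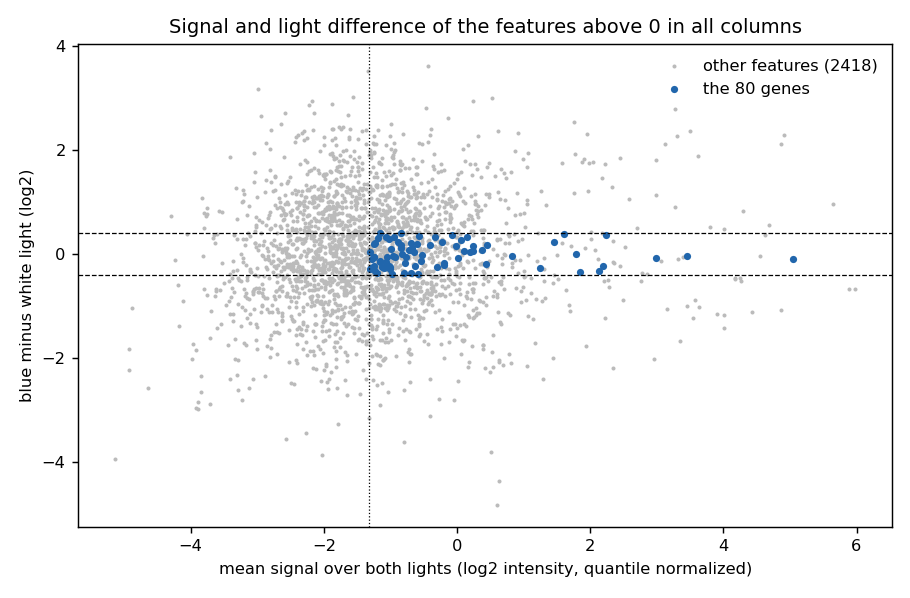
Mean signal over both lights (horizontal axis, quantile-normalized log2 intensity) against the blue minus white difference (vertical axis, log2) for the 80 genes (blue points) and the other 2418 features above 0 in all columns (grey points). Dashed lines mark the difference limit of 0.4 and the dotted line the level limit of -1.32, and the 80 genes thin out towards high signal, where 11 of them lie above 1.

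Of the genes of photosynthetic electron transport, NdhS encodes a subunit of the chloroplast NADH dehydrogenase-like complex, which passes electrons from ferredoxin back to the plastoquinone pool. NdhS had signals of 3.26, 3.23, 2.97 and 2.33 in blue light, against 3.43, 3.41, 2.96 and 2.33 in white light. Both lights had their lowest value in sample 4, and same-numbered samples lay within 0.18 of each other although samples of one light spread over about 1 log2 unit. The mean difference was -0.09 (SE 0.33, 95% interval -0.81 to 0.64, or -0.56 to 0.39 with the sample number as a block).

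In carbon and vitamin metabolism, ATSPS4F encodes a sucrose-phosphate synthase, the enzyme type that sets the rate of sucrose synthesis in the cytosol. ATSPS4F had 0.50, 0.54, -0.0043 and 0.62 in blue light, against 0.48, 0.78, 0.38 and -0.32 in white light. The groups overlapped, with the lowest value in white light sample 4, and the mean difference was 0.08 (SE 0.30). THIC encodes the plastid enzyme that makes the pyrimidine part of thiamin, and its transcript is known to be controlled by a riboswitch. THIC had -1.25, -1.05, -1.42 and -1.83 in blue light, against -1.28, -1.20, -0.98 and -0.63 in white light. In sample 4 THIC was lowest in blue and highest in white light, a same-number difference of -1.20, while samples 1 and 2 differed by 0.026 and 0.15. The mean difference of -0.37 (SE 0.28) thus lay near the limit.

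PAC (PALE CRESS) encodes a plastid protein needed for chloroplast development that acts on plastid RNA. PAC had -1.78, -1.37, -1.75 and -0.80 in blue light, against -1.82, -0.77, -1.05 and -1.0 in white light. Its mean level of -1.29 was just above the level limit, and its mean difference was -0.27 (SE 0.33).

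CCL (CCR-like) is known as a clock-controlled gene with an unstable transcript. CCL had 3.88, 3.54, 3.39 and 2.90 in blue light, against 3.56, 3.66, 3.28 and 3.39 in white light. Its mean level of 3.45 was the highest among the named genes. The blue light values reached both above and below all white light values, and the mean difference was -0.044 (SE 0.28, 95% interval -0.65 to 0.57).

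Among the stress genes, XERICO encodes a RING zinc finger protein that raises abscisic acid levels and drought tolerance when overexpressed. XERICO had 1.70, 0.80, 1.75 and 2.47 in blue light, against 2.27, 0.81, 2.38 and 2.62 in white light. Sample 2 was the lowest and sample 4 the highest in both lights. It was the one gene of the 80 that was lower in blue light in all 4 same-numbered pairs, by 0.013 to 0.63 (mean difference -0.34, SE 0.45). DI21 is named for its induction by drought, MAMI encodes a membrane-associated protein named for its induction by mannitol, and CYN encodes cyanase, which breaks down cyanate. DI21 had -1.37, -1.31, -1.45 and -0.43 in blue light, against -0.85, -0.65, -0.65 and -1.81 in white light. Without sample 4 the lights of DI21 did not overlap, and its mean difference was -0.66 on those 3 samples against -0.15 on all 4. MAMI had -1.84, -0.67, -1.12 and -0.03 in blue light, against -1.62, -1.26, -1.02 and -1.02 in white light, and the blue light samples enclosed the white light ones. CYN, given because it is a named product and chosen after its values were seen, had -1.62, -1.20, -0.86 and -1.21 in blue light, against -1.35, -1.07, -1.32 and -0.63 in white light.

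Of the nuclear transcription genes, LAS (LATERAL SUPPRESSOR) encodes a GRAS transcription factor known for its part in starting axillary meristems. LAS had -1.21, -0.85, -0.77 and -0.96 in blue light, against -1.19, -1.03, -0.95 and -0.96 in white light. With a pooled SD of 0.16 between samples of a light it had the smallest spread of the 80 genes, and its same-numbered samples differed by between -0.012 and 0.18. The 2 columns averaged into each sample of LAS differed more, with an SD of 0.34. SPL (SPOROCYTELESS, also NOZZLE) encodes a regulator of spore mother cell formation in anthers and ovules. SPL had -0.89, -1.11, -0.91 and -0.28 in blue light, against -0.33, -0.83, -0.48 and -1.35 in white light. Sample 4 was the highest in blue and the lowest in white light, and the other 3 samples were lower in blue light by 0.28 to 0.57. IYO (MINIYO) encodes a partner of RNA polymerase II that starts cell differentiation. IYO had -0.48, -0.64, -1.55 and -1.19 in blue light, against -0.56, -0.89, -0.87 and -1.32 in white light, with a mean difference of -0.054 (SE 0.31).

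AT5G65360 and AT1G09200 both carry the name histone 3.1, the replication-dependent form of histone H3, which the gene table gives to 6 genes. Near-identical copies may share signal on an array, so neither value can be assigned to its gene alone. AT5G65360 had -1.02, -0.77, -1.17 and -0.84 in blue light, against -0.77, -0.83, -1.09 and -2.72 in white light. Its difference of 0.40 (SE 0.41) lay just inside the limit and rested on white light sample 4, since the other 3 pairs differed by between -0.26 and 0.065. AT1G09200, chosen after its values were seen as the other H3.1 gene, had -0.53, -0.74, -1.56 and -1.77 in blue light, against -1.11, -1.18, -1.49 and -1.63 in white light. Its sample 4 in white light did not stand apart, unlike that of AT5G65360.

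GH9B11 encodes an endoglucanase of glycosyl hydrolase family 9, a family that acts on cell wall glucans. GH9B11 had -0.68, -0.78, -0.36 and -1.30 in blue light, against -1.41, -0.54, -1.62 and -0.82 in white light. The pairs differed in sign, from -0.47 to 1.26, around a mean difference of 0.32 (SE 0.32).

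**Figure D2:**
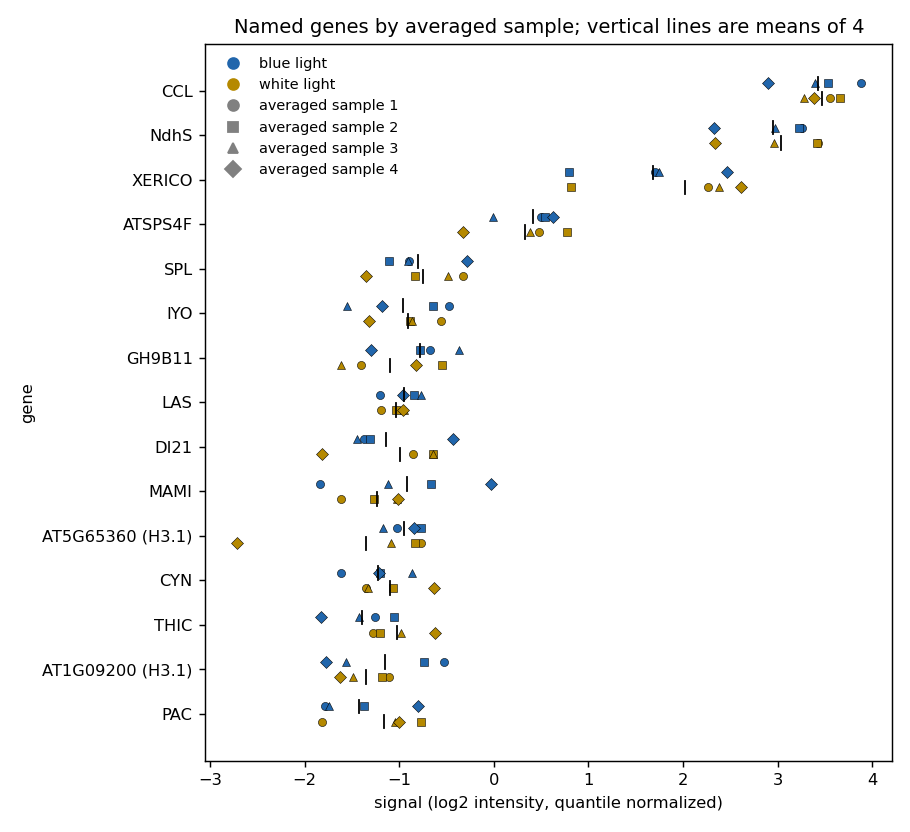
Quantile-normalized log2 signal (horizontal axis) of the 15 genes with a symbol or product name, with blue light above white light in each row, a symbol for each of the 4 averaged samples and a vertical line at each mean. NdhS has its same-numbered samples at like positions in both lights, and XERICO has its samples in the same order in both. AT5G65360 and DI21 have white light sample 4 far to the left.

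The 12 highest signals belonged to CCL, NdhS, XERICO and 9 genes with a locus name only. AT4G22830 had the highest level, at 5.23, 5.04, 5.11 and 4.61 in blue light, against 5.87, 5.57, 5.39 and 3.53 in white light. White light sample 4 was the lowest of the 8, and the other 3 white light samples were above all blue light samples. The mean difference of -0.09 (SE 0.45) thus averaged same-number differences of -0.64, -0.54, -0.28 and 1.08. AT1G06730 was similar, with 2.43, 2.01, 1.59 and 1.1 in blue light, against 2.96, 2.39, 1.92 and -0.14 in white light. Its first 3 pairs were lower in blue light by 0.34 to 0.53 and the fourth was higher by 1.24, which brought the mean difference to -0.0031.

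AT5G50350 had 2.36, 1.78, 2.51 and 1.23 in blue light, against 2.79, 2.48, 3.14 and 0.77 in white light, and again only sample 4 was higher in blue light. AT3G09080 had 1.90, 2.1, 2.54 and 1.77 in blue light, against 2.79, 2.76, 2.42 and 1.24 in white light. AT1G51350 had 1.78, 1.76, 2.05 and 1.61 in blue light, against 1.57, 2.11, 1.60 and 0.40 in white light. The samples of AT1G51350 lay close together in blue light (SD 0.18) and apart in white light (SD 0.73), with sample 4 lowest. AT4G18180 had 1.79, 1.41, 1.49 and 1.61 in blue light, against 2.1, 0.70, 1.99 and 0.55 in white light, where samples 2 and 4 were low. AT1G76450 had 2.43, 2.31, 3.13 and 1.80 in blue light, against 1.73, 2.51, 2.45 and 1.51 in white light. Its mean difference of 0.37 (SE 0.35) was the second highest of these 12, after 0.38 for AT1G51350.

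AT3G44020 had 1.25, 0.98, 1.56 and 0.67 in blue light, against 1.53, 1.73, 1.11 and 1.14 in white light. AT5G06010 had 1.0, 1.29, 0.76 and 0.20 in blue light, against 0.90, 1.44, 0.98 and 0.11 in white light. The pairs of AT5G06010 lay within 0.21 of each other, and sample 2 was highest and sample 4 lowest in both lights.

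The mean differences were small by choice. By limma, 0 of the 80 genes passed for blue against white light at an adjusted p of 0.05, where 34.3% of the 2498 features passed. At an unadjusted p of 0.05, 0 of the 80 passed as well, against 1105 of the 2498 features. The genes were chosen on this contrast, and nothing is read from these counts. With the number of the sample as a block, again 0 of the 80 passed, where 1132 of the 2498 features did, and nothing is read from this either. The 95% interval of the difference had a half-width between 0.53 and 1.37, with a median of 0.71. The interval stayed within a 2-fold change in either direction for 48 genes, reached beyond it for 32, and stayed within the 0.4 of the rule for 0 of the 80. With the sample number as a block, an addition made after the data were seen, the half-width was between 0.48 and 1.06, with a median of 0.58, and it was narrower for 75 of the 80 genes. These paired intervals stayed within a 2-fold change for 71 genes, reached beyond it for 9, and again stayed within 0.4 for 0 of the 80. Without the block, AT4G23080 had the widest interval, from -1.21 to 1.52, and LAS the narrowest, from -0.44 to 0.62. The samples of blue and white light overlapped for all 80 genes. Since the genes were chosen for a small difference, nothing is read from this overlap.

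Within same-numbered samples, 78 of the 80 genes had differences of both signs. The mean of these 4 differences is what the rule held within 0.4, which favours mixed signs. No share over all features is given, and nothing is read from this count, nor from XERICO and AT4G22190 as its exceptions. AT4G22190 was the one gene higher in blue light in all 4 pairs, by 0.15 to 0.53, and it is named because of that. In 9 genes all 4 pairs stayed within 0.4. These were NdhS, LAS, AT5G62840, AT2G37580, AT1G01250, AT5G06010, AT5G17280, AT4G16410 and AT4G19430, a set chosen after the values were seen. AT5G62840 had 0.19, 0.04, -0.15 and 0.47 in blue light, against -0.10, 0.14, 0.0027 and 0.29 in white light, and a mean difference of 0.053 (SE 0.26). AT1G01250 had 0.07, 0.39, 0.41 and -0.03 in blue light, against 0.16, 0.54, 0.12 and -0.13 in white light, and a mean difference of 0.038 (SE 0.26). In 23 genes at least 1 pair differed by more than 2-fold. The largest such difference was that of AT4G23080 in sample 4, at 2.06, where white light was at -2.20 and blue light at -0.14.

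**Figure D3:**
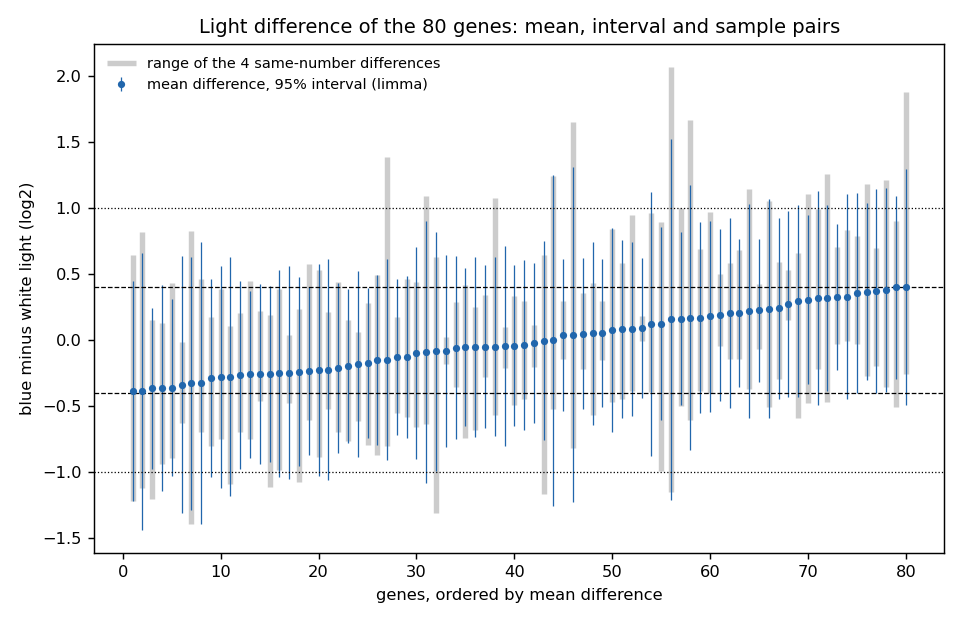
Blue minus white difference (vertical axis, log2) of the 80 genes, ordered along the horizontal axis by their mean. Points with thin bars are mean differences with 95% intervals from limma without a block, grey bars span the differences of the 4 same-numbered samples, dashed lines mark 0.4 and dotted lines a 2-fold change. All means lie within 0.4 by choice, while 32 of these intervals and the pairs of 23 genes reach beyond 2-fold.

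The spread between samples of a light, which the rule did not use, had a pooled SD from 0.16 to 1.15 over the 80 genes. Its median was 0.46, the same to 2 decimals as over all 2498 features. It was 0.45 over the 171 single-gene features of above-median signal outside the difference limit. Between the columns averaged into a sample the median SD was 0.17 for the 80 genes, 0.17 for those 171 features and 0.24 for all features. The smallest pooled SDs were those of LAS, AT1G70200 (0.18), AT4G17440 (0.21), AT5G62840 (0.22), AT3G52550 (0.22), AT5G52960 (0.24), AT5G17280 (0.25) and AT1G01250 (0.25). AT1G70200 had -0.17, 0.15, -0.22 and -0.21 in blue light, against -0.60, -0.27, -0.33 and -0.14 in white light. AT4G17440 had 0.03, -0.17, 0.013 and -0.52 in blue light, against -0.47, -0.29, -0.69 and -0.49 in white light. Neighbouring columns of AT4G17440 differed by more than its averaged samples did, with an SD of 0.54. The same held for LAS, AT5G62840 (0.30), AT5G52960 (0.31) and AT1G70200 (0.22), but not for AT3G52550, AT5G17280 and AT1G01250. For the genes where it held, the small spread between averaged samples lay below that between columns.

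The largest pooled SDs were those of AT4G23080 (1.15), AT3G50180 (1.05), AT1G06730 (1.04), AT5G50350 (0.85), AT4G15790 (0.83), AT3G45770 (0.78), AT5G42070 (0.78) and AT4G22830 (0.77). In each of these 8 genes the lowest white light value was that of sample 4. AT4G23080 had 0.06, -0.22, 0.52 and -0.14 in blue light, against 1.21, -0.45, 1.05 and -2.20 in white light. AT3G50180 had -1.20, -0.81, -1.35 and -1.82 in blue light, against -0.76, -0.57, -0.53 and -3.47 in white light. AT4G15790 had -0.35, -0.37, -1.24 and -1.14 in blue light, against 0.06, 0.47, -0.12 and -1.95 in white light. Without white light sample 4 the difference of AT4G15790 was -0.91, against -0.39 with it, and it was then the 1 gene of the 80 that passed for light, where 36.5% of all features passed. Without sample 4 of both lights DI21 was the 1 that passed, where 40.0% of all features did. Both calls rest on the contrast that chose the genes, and nothing is read from them.

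White light sample 4 held the lowest white light value in 45 of the 80 genes, against 13, 6 and 16 for samples 1, 2 and 3. The median deviation of the 80 genes from the white light mean was -0.25 in sample 4. The median absolute deviation of white light sample 4 was 0.38 for the 80 genes and 0.45 for all 2498 features. The size of the deviation there was thus not particular to these genes. The count of 45 and the median of -0.25 have no value over all features beside them. Whether the downward direction is particular to these genes therefore cannot be told. In blue light, sample 4 was the lowest in 31 genes and the highest in 24, with a median deviation of -0.13. Replicates 7 and 8 of white light had the lowest total signal of all columns, and the part of that low signal in these values was not tested. Without sample 4 of both lights, 56 of the 80 genes had a difference of at most 0.4 and 24 a larger one, from -0.79 to 0.70.

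**Figure D4:**
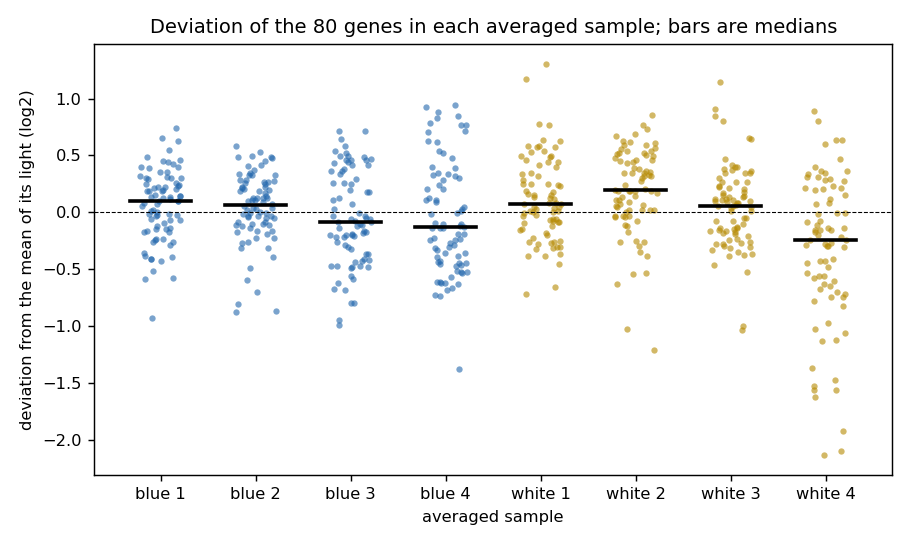
Deviation of each of the 80 genes from the mean of its own light (vertical axis, log2) in each averaged sample, blue light left of white light, with black bars at the medians. White light sample 4 has the lowest median, at -0.25, and the genes farthest below 0.

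The sample number was tested as a factor of its own, since this contrast was used by no step of the choice. By limma's F test with light as the other term, 0 of the 80 genes passed at an adjusted p of 0.05, where 1.52% of all features passed (38 of 2498). At an unadjusted p of 0.05, 18 of the 80 genes passed (22.5%), against 23.5% of all features, a share near that of the array as a whole. The smallest adjusted p among the 80 was 0.066, for XERICO, the gene with sample 2 low and sample 4 high in both lights. It was followed by AT5G50350 (adjusted p = 0.073) and AT1G06730 (adjusted p = 0.087). The other smallest values were those of AT5G42070, AT1G61590 and AT4G14380. AT5G42070 had -0.53, -0.29, -0.91 and -1.42 in blue light, against -0.44, -0.29, -0.51 and -2.38 in white light, lowest in sample 4 of both lights. AT1G61590 had -1.66, -1.33, -1.68 and -0.33 in blue light, against -1.32, -0.85, -1.47 and -0.36 in white light, highest in sample 4 of both lights. AT4G14380 had -1.39, -1.96, -1.57 and -0.54 in blue light, against -1.60, -1.43, -1.28 and -0.24 in white light, with sample 4 again the highest. Without blue light sample 4 the test passed for 8 of the 80 genes, where 6.33% of all features passed. These 8 were AT4G23080, AT5G50350, AT3G45770, AT3G50180, AT4G22830, AT1G06730, AT4G15790 and AT5G42070, with adjusted p-values from 0.0196 to 0.0416. In that fit number 4 rests on white light sample 4 alone, so the test cannot tell the number from that sample, and nothing is read from the 8 genes.

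How small the differences were also depended on the scaling. With cyclic loess, which like quantile normalization adjusts for differences with signal, 73 of the 80 genes stayed within 0.4. With each column centred on its median, 51 stayed, with scaling to column totals 25 and as deposited 7. The median difference of the 80 genes was -0.022 with loess, -0.28 with median centring, 0.49 with scaling to totals and 1.19 as deposited, against 0.019, -0.12, 0.65 and 1.35 over all features. As deposited the means of log2 values were higher in blue light for all 80 genes, by 0.04 to 1.76, but the means of the linear intensities were lower in blue light for 8 of them, 7 of which were among the 12 brightest. By limma, 36 of the 80 genes passed as higher in blue light as deposited, where 54.7% of all features did, and 10 passed as higher with scaling to totals, where 39.3% did. With median centring 5 passed as lower, where 20.6% of all features did. With loess 0 of the 80 passed in either direction, where 32.9% of all features did. These counts rest on the contrast that chose the genes, and nothing is read from them. AT3G57120, THIC and AT4G38670, chosen after the values were seen, were the 3 genes within 0.4 under loess, median centring and scaling to totals, and none was within it as deposited too.

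The differences of the brightest genes lay below those of the others under the scalings that shift each column as a whole, while after quantile normalization and loess both sets had medians close to 0. The 12 genes of highest signal had a median difference of -0.066 after quantile normalization and 0.013 with loess, and with median centring all 12 were lower in blue light, with a median of -1.24. The other 68 genes had a median of -0.23 with median centring, and 51 of them stayed within 0.4. As deposited the 12 brightest again lay below, with a median difference of 0.22 against 1.24 for the other 68. CCL was at -0.044 after quantile normalization, -1.43 with median centring and 0.04 as deposited. As deposited, CCL had an intensity of 11.2 ± 2.98 in blue light, against 11.96 ± 5.64 in white light (SD, n = 4 each). NdhS was at 8.87 ± 2.26 in blue light, against 9.25 ± 5.94 in white light, and XERICO at 4.16 ± 1.84 in blue light, against 4.47 ± 2.92 in white light. LAS, a dimmer gene, was at 0.855 ± 0.145 in blue light, against 0.326 ± 0.115 in white light, as deposited, and its difference was 0.0022 with median centring. All features showed the same order with median centring, with a median difference of -0.99 for the 250 brightest features and 0.027 for the 1249 features at or below the level limit. The 7 genes within 0.4 as deposited, NdhS, XERICO, AT3G09080, AT3G44020, AT5G50350, CCL and AT4G22830, were all among the 12 brightest.

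**Figure D5:**
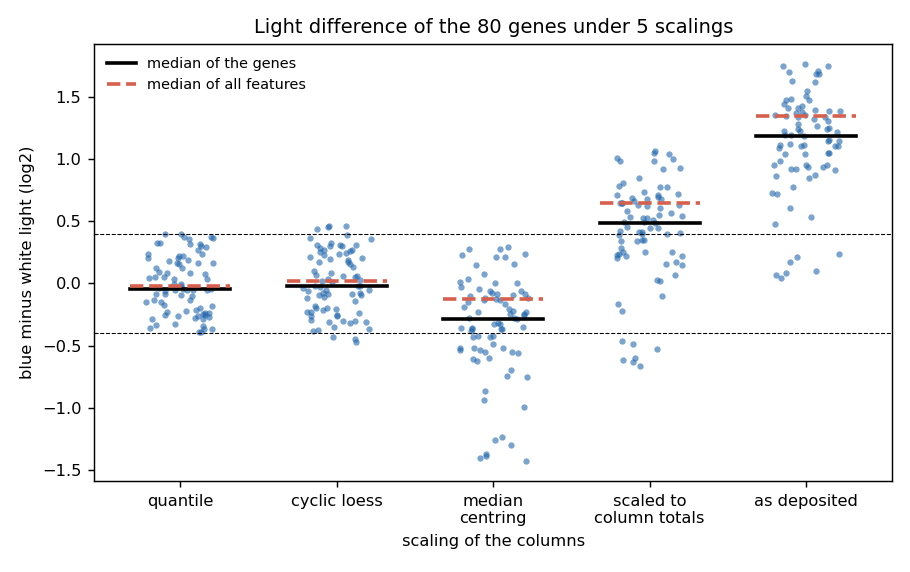
Blue minus white difference (vertical axis, log2) of the 80 genes under 5 scalings of the columns (horizontal axis), with the median of the genes (solid bar) and of all 2498 features (dashed bar). The genes lie within 0.4 under quantile normalization by choice, and as deposited their median is 1.19, below the 1.35 of all features.

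Small differences were about as frequent above the level limit as below it. Of the 251 single-gene features above the level limit, 80 were within 0.4 (31.9%), against 74 of 236 below it (31.4%) and 801 of all 2498 features (32.1%). Just inside the difference limit lay AT5G65360 (0.40), AT2G03200 (0.40), AT3G47650 (-0.39) and AT4G15790 (-0.39). Just outside lay AT1G76050 (-0.41), AT2G25870 (0.41), PSAN (-0.41), a photosystem I subunit, and AT3G15490 (-0.43). At the level limit, PAC (-1.29), AT5G06790 (-1.30) and AT3G50180 (-1.31) lay just inside, and AT4G40080 (-1.33), AT3G12930 (-1.33) and AT1G13970 (-1.35) just below. AT2G03200 had -0.76, -0.11, -0.39 and -1.31 in blue light, against -1.34, -0.72, -1.29 and -0.80 in white light, higher in blue light in all samples but the fourth. AT3G47650 had -0.87, -0.89, -1.66 and -1.28 in blue light, against -0.29, -0.49, -0.44 and -1.92 in white light, lower in blue light in all samples but the fourth.

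In gene order, AT1G61990 and AT1G62010 stand with 1 protein-coding gene between them, and GH9B11 and AT2G44530 with 2. AT1G62010 had 0.76, 0.52, 1.06 and -0.19 in blue light, against 0.36, 0.93, 0.08 and 0.06 in white light. AT1G61990 had 0.50, 0.09, 0.81 and -0.12 in blue light, against 0.24, 0.59, -0.18 and 0.0013 in white light. Both had sample 3 highest and sample 4 lowest in blue light and sample 2 highest in white light. They were picked out by position after the values were known, and the likeness was not tested.

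None of the 80 genes was on the lists of reference genes, plastid chaperones and proteases, redox enzymes, carbon metabolism and plastid translation factors. Over these lists and the organ markers, 229 names had 5 single-gene features, of which 3 could be tested. Of the reference genes, AT2G28390 (SAND family) had 0.09, -0.31, -0.34 and -1.17 in blue light, against -0.71, -0.26, -1.53 and -1.29 in white light. Its difference of 0.51 (SE 0.36, limma adjusted p = 0.302) did not pass and lay outside the 0.4 of the rule. NTRC, a plastid thioredoxin reductase, rose by 1.04 (SE 0.30, limma adjusted p = 0.0186). PRK, which makes the carbon dioxide acceptor of photosynthesis, fell by 0.91 (SE 0.29, limma adjusted p = 0.0287). All 3 had signals above the level limit. Their differences are given after quantile normalization only, although the differences of the 80 genes depended on the scaling.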

How the data were processed

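The deposited table held linear intensity values for 3439 features in 16 columns, from 0 to 100. The highest value was 100 in white light replicates 1, 2, 5, 6, 7 and 8 and in blue light replicates 5, 7 and 8. Whether 100 is a ceiling is not stated, and its effect on the brightest genes was not tested. How the authors read, corrected and scaled these intensities is not stated per the labels. Genes came from the platform annotation, of which some may be outdated: 692 were paired with 1 gene, 870 with several and 1877 with none. Symbols came from the TAIR10.1 gene table, which matched 691 of the 692 and all 80 genes. No coordinates are given.

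Zeros were left out by requiring values above 0 in all 16 columns. Values were put on the log2 scale, quantile normalized and averaged over neighbouring replicates. The members, the lists and this averaging were chosen with earlier results of these data known. The moderated tests of limma 3.58.1 (R 4.3.3, Benjamini-Hochberg adjustment, two-sided for light) were run over all 2498 features without a block. Both fits were tested on simulated data. p-values measure the spread between averaged samples, which may be technical.

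Deviations of same-numbered samples of both lights had correlations across features of 0.40, 0.49, 0.20 and 0.41, all over the limit of 0.1 for pairing. Samples of unlike number had correlations from -0.31 to 0.17. Number 3, at 0.20, was thus close to the highest of these, which was itself over the limit. The main fit had no block all the same, and the fit with the number as a block was an alternative.

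The genes named were the 12 highest signals, the 8 smallest and 8 largest spreads, those nearest the limits, up to 3 per function group and the 6 smallest p-values of the number test. Others are marked as chosen later. Alternatives covered normalization, filters, left-out samples, separate columns, the variance model and thresholds.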

Additional observations from a re-analysis of the deposited data

Results flagged for a closer look

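Among 82 groups of 4 averaged samples examined (the 39 genes named by rule in each light, and the median signals as deposited), 8 held a sample far from the other 3. Chance gives about 5% of groups, but the genes were named partly for a large spread, a small p for the sample number or a difference near the limits, so the 2 shares cannot be set against each other. Of these 8 samples, 6 were sample 4.

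In white light, sample 4 stood below the others in 5 genes. AT3G50180 was at -3.47, with the others between -0.76 and -0.53. AT5G65360, an H3.1 gene, was at -2.72, with the others between -1.09 and -0.77. AT3G45770 was at -2.55, with the others between -0.49 and -0.28. AT5G42070 was at -2.38, with the others between -0.51 and -0.29, and AT3G47650 was at -1.92, with the others between -0.49 and -0.29. The part of the low total signal of white light replicates 7 and 8 in these values was not tested.

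In blue light, DI21 was at -0.43 in sample 4, above the others (-1.45 to -1.31). AT1G70200 was at 0.15 in sample 2, with the others between -0.22 and -0.17, and AT3G52550 was at -0.21 in sample 3, with the others between -0.76 and -0.69.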

How the results depend on the processing

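The rule gave 80 genes, and from 61 to 117 under every alternative but no normalization, which gave 41 genes, of which 7 were among the 80. Leaving out each averaged sample gave 72 to 83, of which 60 to 73 were among the 80. Blue against white light passed for 858 features, for 606 to 913 with a sample left out, for 1132 with the replicate block, for 1319 with 16 separate columns, for 1404 without normalization and for 469 at an adjusted p of 0.01. The 1319 treats neighbouring columns as independent samples, which overstates the number of samples, and nothing is read from it. Among the 80 genes, AT4G15790 passed without white light sample 4 (-0.91, limma adjusted p = 0.0452), where 36.5% of all features passed. DI21 passed without sample 4 of both lights (-0.66, limma adjusted p = 0.0423), where 40.0% did. As higher in blue light, 36 passed without normalization (54.7% of all features) and 10 scaled to totals (39.3%). With median centring 5 passed as lower (20.6% of all features), and with loess 0 passed in either direction (32.9%). These calls rest on the contrast that chose the genes, and nothing is read from them. The 95% interval stayed within 2-fold for 48 genes, and for 71 with the replicate block.

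The count for the sample number (38) was the least stable. It was 5 with median centring, 4 with scaling to totals, 61 without normalization, 22 with cyclic loess, 6 with features above 0 in at least 6 columns per light, 0 with the pseudocount, 1218 with 16 separate columns, 140 with a variance trend (XERICO, AT5G50350 and AT1G06730 among them) and 2 at an adjusted p of 0.01. With a sample left out it ran from 0 without white light sample 3 to 158 without blue light sample 4, and it was 1 without blue light sample 2, 8 without blue light sample 3, 4 without white light sample 2 and 72 without white light sample 4. The count of 1218 treats neighbouring columns as independent samples, although every column was closest to its neighbour. It therefore overstates the number of samples, and nothing is read from it. The causes of the other changes were not tested.

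The median difference of the 80 genes (-0.042) was 0.49 scaled to totals and 1.19 without normalization, and ran from -0.11 to 0.046 with a sample left out. The median SD (0.46) ran from 0.41 to 0.47 with a sample left out and was 0.33 without sample 4 of both lights. Of the 39 genes named by rule, 28 moved up by more than their SD without normalization, 16 moved down with median centring, 20 moved (19 up) with scaling to totals and 0 moved with cyclic loess.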
